A study of Mus musculus with 36 samples.

Results

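The accessibility of chromatin was compared between HP1α-deficient and wild-type conventional CD4 T cells (Tconv) that had been transferred together with regulatory T cells (Treg). The comparison took all ATAC-seq libraries labelled as HP1α Tconv transferred with Treg, 3 KO and 3 WT, out of 36 libraries in the series, and 71508 of 71509 peaks passed the filter on low counts. The study used WT 1, WT 2 and KO 1 (the kept libraries) and left out WT 3, KO 2 and KO 3 for low signal. Values are therefore given over all 6 libraries and, for the main results and most named peaks, also apart in the kept and the left-out libraries, which share no library.

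The KO cells came from Hp1a-/- mice, in which a floxed Hp1a allele had been excised with a CMV-cre transgene, so that the gene was missing from all tissues and not from T cells alone. The WT cells came from Hp1a+/+ littermates of the same intercrosses, of mixed genetic background, sex-matched and 6 to 12 weeks old. Naive CD4 T cells of either genotype were injected with ex vivo expanded WT Treg from Foxp3-Thy1.1 mice into irradiated C57BL/6J or CD45.1+ B6 hosts. The hosts also received C57BL/6J and allogeneic B6D2F1 bone marrow. The Tconv were sorted from the spleen 3 weeks later as Thy1.1- H-2Kb+ H-2Kd- TCR Vβ6+ cells, which excluded the transferred Treg, and Thy1 and H-2Kb were thus antigens of the gate. The same design without Treg (3 KO and 3 WT libraries) and naive cells (3 and 3) served for reference. The labels do not say which libraries came from separate mice, so the spread between libraries may be technical. The p-values over all 6 libraries rest on the spread within groups of all HP1α libraries, including naive cells and Tconv without Treg. They do not measure the spread of the libraries with Treg alone.

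HP1α, encoded by Cbx5, is a heterochromatin protein that binds histone H3 methylated on lysine 9 through its chromodomain and recruits other silencing factors through its chromoshadow domain. It is best known from constitutive heterochromatin at repeats, and HP1 proteins also act at genes in euchromatin. In CD4 T cells, histone H3 lysine 9 methylation has been linked to the stability of helper lineages, and Treg hold effector T cells back through cytokines, inhibitory receptors and competition for IL-2.

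The 6 libraries differed widely in depth. Reads in peaks, in mega-reads (M), came to 12.7, 1.49 and 3.20 M in WT 1, 2 and 3, and to 50.7, 7.12 and 5.73 M in KO 1, 2 and 3. KO 1 was thus the deepest library and WT 2, a kept library, the shallowest, with 8853 peaks at 0 reads. The share of these reads in peaks at most 1 kb from a transcription start (TSS) was 65.4%, 61.6% and 66.1% in the kept libraries WT 1, WT 2 and KO 1, against 56.3%, 58.5% and 57.8% in the left-out ones. Log2 counts correlated across peaks at r = 0.702 to 0.852 between WT libraries and at 0.898 to 0.916 between KO libraries. The summed level at the TSS peaks of CD4 T cell markers was 614 to 697 CPM (counts per M reads in peaks) in WT and 660 to 815 in KO, while CD8 T cell, B cell, myeloid, NK and erythroid marker sums ran from 3.47 to 104 CPM and overlapped between genotypes. Treg markers summed to 76.7 to 121 CPM in WT and 85.7 to 96.1 in KO, and the Foxp3 TSS peak had a log2 fold change of 0.22 (adjusted p = 0.919).

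**Figure D1:**
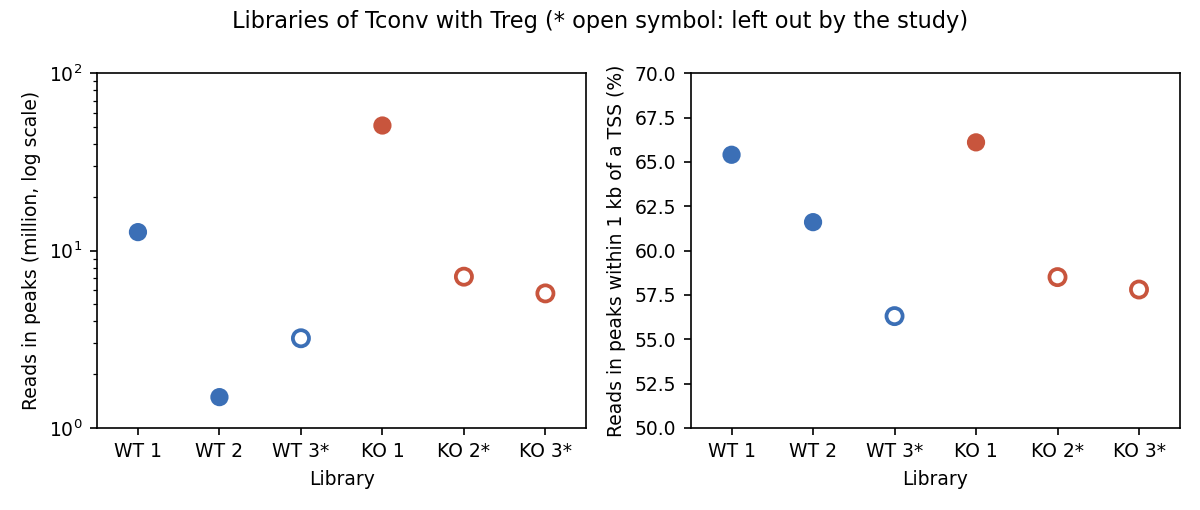
Reads in peaks (M, log axis) and the share of them within 1 kb of a TSS (%; the axis starts at 50) in each library of Tconv with Treg, with WT in blue and KO in red, and with open symbols for left-out libraries. KO 1 held 50.7 M reads against 1.49 to 12.7 M in WT, and the 3 left-out libraries had the lowest TSS shares.

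The peak at the Cbx5 TSS did not mark the genotype. At chr15:103123401-103124490 (GRCm39, as all positions here) it had log2 CPM values of 3.93, 3.64 and 3.38 in WT and 4.04, 3.12 and 3.37 in KO. The groups overlapped, with a log2 fold change of 0.02 ± 0.30 (SE) and an adjusted p of 0.991. Which part of Cbx5 was excised is not given in the sources used here, so this peak does not check the labels.

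Most peaks called over all 6 libraries of Tconv with Treg were lower in KO, though the calls turned with the fit. Over all 6 libraries 530 peaks were called at an adjusted p below 0.05 and an absolute log2 fold change above 1, 0.741% of those tested, 9 of them higher (0.0126%) and 521 lower (0.729%) in KO. At each of the 9 higher peaks and at 404 of the 521 lower ones (77.5%), the KO and WT libraries did not overlap. Over all peaks, KO lay above WT without overlap at 4636 (6.48%) and below at 3382 (4.73%), which is not the direction of most calls. The called peaks were chosen on the same 6 libraries, so their larger shares are no separate evidence. In bulk cells, fewer cells with an open site and a site less open in each cell cannot be told apart. DESeq2 called 264 peaks higher and 521 lower, and library size alone gave 64 and 420. The number of calls rested on the deepest library of each genotype: it was 0 without WT 1 (3487 peaks at unadjusted p under 0.05) and 1 without KO 1. The 521 lower peaks had a median log2 fold change of -1.85, and of -1.43 without WT 1 and -1.40 without KO 1. The older edgeR dispersion estimate called 1 peak, which was higher in KO, and a fit of the 6 libraries alone called 0. At unadjusted p under 0.05 these fits held 8905 and 6311 peaks. The 521 peaks were lower in KO in 521 and 514 cases. These signs and the medians above rest on libraries that chose the peaks, so they are no separate evidence.

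The kept libraries gave 1168 calls (1.63%), 156 higher (0.218%) and 1012 lower (1.42%). With KO 1 as the only KO library, the spread in this comparison came from the WT libraries and the other HP1α groups. The lower majority was not kept by every method there, as DESeq2 called 1302 higher and 1252 lower and the older edgeR dispersion estimate 75 and 25. The left-out libraries gave 0 with edgeR (1319 at unadjusted p under 0.05, 1.84%) and 39 with DESeq2. In simulated data, 48.5% of 200 peaks changed by 2 on the log2 scale were called over all 6 libraries, 18.5% in the kept ones and 8.5% in the left-out ones. The simulated libraries shared a common profile and the dispersion of the 18-library fit. They lack further differences between the real libraries with Treg, so these shares need not hold there. Of the 156 peaks higher in the kept libraries, 142 (91.0%) were also above 0 in the left-out libraries, where 52.0% of all peaks were. Of the 1012 lower ones, 730 (72.1%) were also below 0, against 48.0% of all peaks. The medians there were 0.53 and -0.40, against 1.30 and -2.30 in the kept libraries, whose values chose these peaks. Across all peaks both sets of libraries were only weakly related (Pearson's r = 0.09, Spearman's coefficient = 0.18, 57.6% of the same sign), as a description over peaks, which share these libraries and are not replicates. The difference between the kept and left-out effects was called at 0 peaks by edgeR (2546 at unadjusted p under 0.05, 3.56%) and at 40 by DESeq2.

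**Figure D2:**
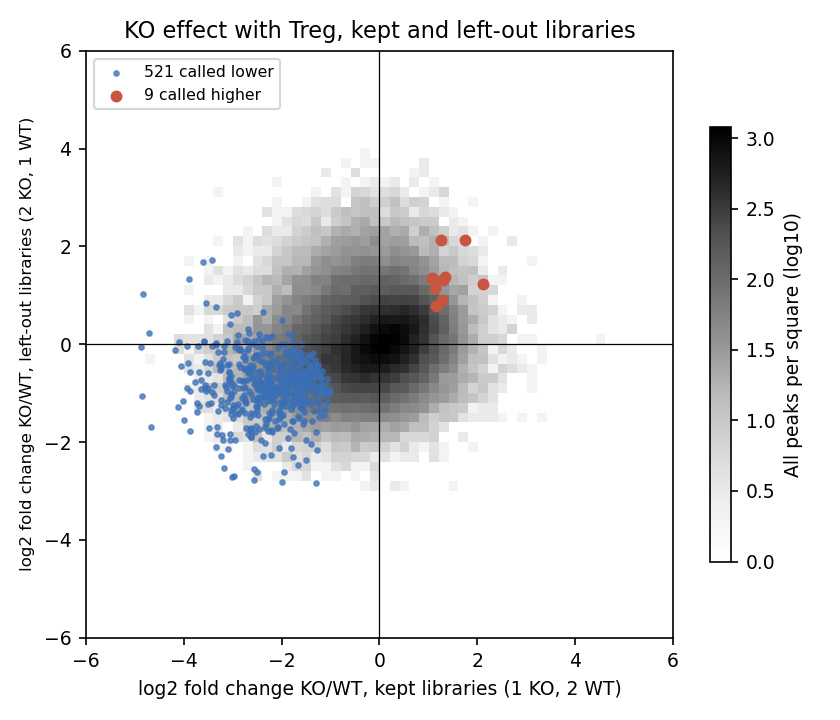
Log2 fold change KO/WT of each peak in the left-out libraries (y axis) against the kept libraries (x axis), with grey shading for the number of all peaks on a log10 scale, blue points for the 521 peaks called lower and red points for the 9 called higher over all 6 libraries. All 9 higher peaks lie above 0 on both axes and 483 of the 521 lower ones lie below 0 on both. The calls used both sets of libraries, so this share is no separate evidence. Beyond the axes lie 997 peaks, of which 1 was called lower.

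The 9 higher peaks lay nearest to 8 coding genes. Grap2, which encodes GADS, the adaptor that links SLP-76 to LAT in T cell receptor signalling, had a pair of intronic peaks. At chr15:80501421-80502780 log2 CPM was 1.36, 0.80 and 0.95 in WT and 3.03, 3.17 and 2.90 in KO, so that every KO library lay above every WT library. The log2 fold change was 1.83 ± 0.40 (adjusted p = 0.0278), with 1.71 in the kept and 2.13 in the left-out libraries. The other Grap2 peak, chr15:80491121-80492740, rose by 1.43 ± 0.34 (adjusted p = 0.0498; 1.23 kept, 2.12 left out). Around the first, 22 of 26 other peaks within 50 kb had a log2 fold change above 0, with a median of 0.70 against -0.07 over all peaks.

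Thy1, a glycoprotein of the T cell surface, was higher at its TSS, chr9:43954031-43957510. Its log2 CPM was 3.99, 3.98 and 4.14 in WT and 5.26, 5.04 and 5.06 in KO, a log2 fold change of 1.14 ± 0.26 (adjusted p = 0.0452), with 1.24 in kept and 0.91 in left-out libraries. A second peak near this TSS had 0.46 (adjusted p = 0.715). Thy1.1 was used in the sort, and the part of the gate in this difference was not tested.

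A pair of higher peaks lay in the major histocompatibility complex on chromosome 17. The peak 4.48 kb from H2-K1, which encodes the class I molecule H-2K (also an antigen of the gate), held 3.0, 3.09 and 2.78 log2 CPM in WT and 4.36, 4.12 and 4.19 in KO (chr17:34210231-34212110, 1.32 ± 0.28, adjusted p = 0.0280; 1.31 kept, 1.38 left out). At the TSS of Rxrb, which encodes the retinoid X receptor β, the values were 5.44, 4.82 and 5.14 in WT and 6.47, 6.10 and 6.48 in KO (chr17:34249061-34252570, 1.08 ± 0.24, adjusted p = 0.0370; 1.09 kept, 1.15 left out). Of the 13 other peaks within 50 kb of the H2-K1 peak, 12 were above 0, against 45.4% of all peaks, and KO lay above WT without overlap at 8 of them, against 6.48% of all peaks.

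On chromosome 11 a pair of neighbouring peaks near Hes7, a Notch target and transcriptional repressor, was higher. The upstream one, chr11:69008251-69010460, had 3.71, 4.13 and 3.82 log2 CPM in WT and 5.08, 4.92 and 5.33 in KO, a log2 fold change of 1.31 ± 0.26 (adjusted p = 0.0164) that was 1.27 in the kept and 1.31 in the left-out libraries. The wider peak over Hes7 towards Aloxe3, a lipoxygenase gene, rose by 1.08 ± 0.24 (adjusted p = 0.0329; 1.04 kept, 1.35 left out). The remaining higher peaks lay at the TSS of Rinl (1.04 ± 0.24, adjusted p = 0.0419; 1.12 kept, 0.79 left out) and in an intron of Gm33677, 134 kb from the kinase gene Dyrk2 (1.86 ± 0.42, adjusted p = 0.0328; 2.08 kept, 1.23 left out). Around the Dyrk2 peak 7 of 12 other peaks within 50 kb were above 0, 0 without overlap, with a median of 0.26. Median log2 CPM over the 9 peaks was 3.56, 3.88 and 3.82 in the WT libraries with Treg, 4.65 to 4.76 in KO with Treg, 4.61 to 5.07 in both genotypes without Treg and 4.23 to 4.50 in naive cells. The KO effect without Treg had a median of 0.11 at these peaks, which were chosen for a low level in WT with Treg against KO with Treg. All 9 stayed above 0 with any 1 library with Treg left out, but 0 were called without WT 1 or without KO 1, and 1 without WT 2 or without WT 3.

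The sequences at the centre of 5 lower peaks and of the Grap2 peak are shown because 37.2% of the lower peaks held the AP-1 motif TGANTCA there, against 13.0% of all peaks and 0 of the 9 higher ones. Each is the central 300 bases on the + strand of GRCm39 with the motif in capitals. N stands for any base, so TGAATCA and TGATTCA were counted as well as TGACTCA and TGAGTCA. The Itgav, Maf and Cxcr4 matches are of the first 2 forms. The 5 lower ones were picked, after the search, among named peaks that held the motif, while those at Ctla4, Eomes and Ifng and a second peak each of Ikzf2, Itgav and Maf held none in this window. They lie in an Ikzf2 intron (chr1:69584136-69584435), upstream of Cblb (chr16:51707771-51708070), in an Itgav intron (chr2:83558831-83559130), upstream of Maf (chr8:116469531-116469830) and in an intergenic peak nearest to Cxcr4 (chr1:128736301-128736600). The Grap2 intron (chr15:80501951-80502250) has no such motif in this window.
Ikzf2: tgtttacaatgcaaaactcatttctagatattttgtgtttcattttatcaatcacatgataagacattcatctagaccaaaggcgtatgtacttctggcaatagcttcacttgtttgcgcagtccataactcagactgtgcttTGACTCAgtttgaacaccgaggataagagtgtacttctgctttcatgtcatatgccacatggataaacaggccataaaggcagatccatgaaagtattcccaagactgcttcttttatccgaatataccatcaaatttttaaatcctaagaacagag
Cblb: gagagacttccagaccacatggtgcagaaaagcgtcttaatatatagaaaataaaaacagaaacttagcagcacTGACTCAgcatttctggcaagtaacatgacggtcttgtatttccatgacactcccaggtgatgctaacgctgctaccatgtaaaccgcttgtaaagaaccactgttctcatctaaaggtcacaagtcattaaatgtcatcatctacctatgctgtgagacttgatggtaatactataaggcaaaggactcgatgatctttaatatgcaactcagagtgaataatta
Itgav: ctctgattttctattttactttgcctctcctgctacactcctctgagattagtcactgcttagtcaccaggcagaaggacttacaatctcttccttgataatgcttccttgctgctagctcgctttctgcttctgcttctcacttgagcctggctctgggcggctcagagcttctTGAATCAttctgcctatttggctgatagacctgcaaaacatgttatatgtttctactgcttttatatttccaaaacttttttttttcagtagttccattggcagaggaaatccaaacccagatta
Maf: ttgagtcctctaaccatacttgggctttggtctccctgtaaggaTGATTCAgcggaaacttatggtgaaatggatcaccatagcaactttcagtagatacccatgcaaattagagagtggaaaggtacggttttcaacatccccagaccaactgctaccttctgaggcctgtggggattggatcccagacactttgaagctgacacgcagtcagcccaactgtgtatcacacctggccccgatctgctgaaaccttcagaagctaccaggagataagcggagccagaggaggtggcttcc
Cxcr4: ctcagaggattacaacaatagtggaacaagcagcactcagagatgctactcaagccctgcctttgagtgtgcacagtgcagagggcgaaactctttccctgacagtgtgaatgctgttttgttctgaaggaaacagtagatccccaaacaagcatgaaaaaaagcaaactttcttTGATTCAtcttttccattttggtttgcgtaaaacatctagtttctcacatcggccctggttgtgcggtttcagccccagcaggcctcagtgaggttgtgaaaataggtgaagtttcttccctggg
Grap2: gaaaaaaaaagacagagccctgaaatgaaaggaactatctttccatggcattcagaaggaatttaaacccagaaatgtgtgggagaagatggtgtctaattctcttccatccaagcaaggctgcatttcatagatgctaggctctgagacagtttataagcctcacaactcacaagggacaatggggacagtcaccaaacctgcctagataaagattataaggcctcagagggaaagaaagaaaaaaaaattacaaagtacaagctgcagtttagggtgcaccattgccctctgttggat

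The strongest lower peaks lay mainly in introns and at noncoding genes. The smallest adjusted p over all 6 libraries, 1.49e-04, was that of a peak at the TSS of Gm47957, a noncoding gene 181 kb from the RNase gene Zc3h12c (chr9:52260061-52261200). Its log2 CPM was 4.48, 4.50 and 3.41 in WT and 1.81, 1.62 and 1.55 in KO, and the log2 fold change was -2.54 ± 0.29, with -2.73 in kept and -1.84 in left-out libraries. This peak was also lower without Treg, by -2.03. A peak in Trim44 at the start of Gm13868 (chr2:102143161-102143580) had 2.80, 2.19 and 1.93 in WT and -0.29, 0.03 and -0.45 in KO (-2.90 ± 0.38, adjusted p = 4.49e-04), and without Treg its log2 fold change was -0.25. Crybg3, E130308A19Rik, Mcoln3, a lysosomal cation channel gene, and Tbck, a regulator of mTOR signalling, each had an intronic peak lower by -2.29, -2.22, -1.94 and -1.64. Stk39, which encodes the stress kinase SPAK, had 4 called intronic peaks between chr2:68118861 and chr2:68134350, from -1.31 to -2.44. In the left-out libraries these 4 peaks stood at 0.06, -0.12, -0.78 and -1.57.

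Some lower peaks were nearest to Ctla4, Ikzf2, Eomes, Maf and Nfatc1. Of 131 peaks of inhibitory receptor genes 2 were called lower, against 0.729% of all peaks, and both belonged to Ctla4, the receptor that competes with CD28 for its ligands. The intronic one at chr1:60941491-60942700 held 4.34, 4.70 and 3.09 log2 CPM in WT and 2.77, 2.55 and 2.47 in KO, with no overlap, and fell by 1.47 (SE 0.28, adjusted p = 0.0154). The drop was -1.68 in kept and -0.58 in left-out libraries, and in Tconv without Treg the value was 0.01. The peak at the Ctla4 TSS itself had -0.37 (adjusted p = 0.927).

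Ikzf2, the gene of the transcription factor Helios, had 3 called peaks, all far from its TSS. The widest (chr1:69582511-69586060, shown above, 139 kb from the TSS) had 6.29, 5.28 and 5.22 log2 CPM in WT and 4.59, 4.59 and 4.70 in KO (-1.31 ± 0.23, adjusted p = 0.00927), with -1.56 in kept and -0.58 in left-out libraries. The other Ikzf2 peaks stood at -1.53 (adjusted p = 0.0255; -2.12 kept, -0.37 left out) and -1.42 (adjusted p = 0.0307; -1.56 kept, -0.89 left out). Eomes, a T-box factor of cytotoxic and exhausted cells, had a lower peak 112 kb from its TSS at chr9:118194431-118195340, with 3.42, 3.18 and 3.09 in WT and 0.53, 1.67 and 1.68 in KO (-2.40 ± 0.41, adjusted p = 0.00503; -2.94 kept, -1.43 left out).

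Maf, a factor that drives IL-10, was lower at 2 distal peaks (-1.21 and -1.11, adjusted p = 0.0290 and 0.0363). They stood at -1.45 and -1.50 in the kept but at -0.51 and -0.23 in the left-out libraries. Nfatc1, a calcium-regulated factor, was lower at 1 peak 62.7 kb from its TSS (-2.03 ± 0.37, adjusted p = 0.00930; -2.50 kept, -0.77 left out). The TSS peaks of Ikzf2, Eomes, Maf and Nfatc1 were not called, with log2 fold changes from -0.66 to 0.11. The peaks chosen for Pdcd1, the gene of PD-1 (-0.86, adjusted p = 0.0778), Tigit (-1.32, adjusted p = 0.0946), Btla (-0.97, adjusted p = 0.0665) and Il10 (-0.95, adjusted p = 0.0765) were not called.

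Of 415 peaks of proximal T cell receptor signalling genes 2 were called lower and of 287 peaks of AP-1, BATF and IRF genes 2, shares at or below the 0.729% of all peaks. Cblb, a ubiquitin ligase that restrains T cell receptor signals, had a called peak 144 kb upstream (chr16:51707431-51708410). Log2 CPM was 3.89, 2.77 and 3.44 in WT and 1.58, 1.85 and 1.40 in KO, and the fall of 2.10 (SE 0.33, adjusted p = 0.00429) was similar in kept (-2.24) and left-out (-1.78) libraries. The value without Treg was 0.15. Prkcq, the gene of protein kinase C θ, had an intronic peak at -1.98 ± 0.35 (adjusted p = 0.00792; -2.41 kept, -0.96 left out). Rcan1, an inhibitor and target of calcineurin, had one at -1.78 ± 0.36 (adjusted p = 0.0201; -2.16 kept, -1.04 left out). Irf2, which antagonises interferon-induced transcription, and Bach1, a repressor of AP-1-like sites, each had 1 distal peak lower by -1.57 and -2.31 (adjusted p = 0.00652 and 0.0135), with -1.89 and -2.78 in the kept and -0.69 and -1.18 in the left-out libraries.

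Th1 genes had 3 lower calls among 263 peaks and Th17 genes 2 among 259, against 0.729% of all peaks. The peak 54.3 kb from Ifng, the interferon-γ gene (chr10:118330621-118331910), held 3.55, 3.64 and 3.50 log2 CPM in WT and 1.69, 2.63 and 2.57 in KO, and fell by 1.53 (SE 0.33, adjusted p = 0.0270), with -1.92 in kept and -0.90 in left-out libraries. Hlx, a Th1 homeobox factor, was lower at a peak 197 kb from its TSS (-1.44 ± 0.28, adjusted p = 0.0115; -1.65 kept, -0.67 left out), and the chemokine gene Xcl1 at one 52.6 kb away (-1.78, adjusted p = 0.0356), where the left-out libraries gave 0.10. At the TSS of Il2, which encodes the growth factor for which T cells and Treg compete, log2 CPM was 3.42, 3.88 and 2.83 in WT and 4.84, 3.95 and 3.63 in KO. The groups overlapped and the log2 fold change of 1.14 ± 0.39 did not pass the test (adjusted p = 0.233). The best Il17a peak had 0.62 (adjusted p = 0.831), and an intronic peak of Stat4, the transducer of IL-12, had 1.35 (adjusted p = 0.122).

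Of 290 peaks of TGF-β pathway genes 4 were called lower, of 291 of homing genes 3, of 196 of costimulators 3 and of 202 of cell cycle genes 2, against 0.729% of all peaks. Itgav, the integrin αV chain that activates TGF-β, had 3 called peaks. The most distal, chr2:83592171-83593340, had 3.82, 3.98 and 3.64 in WT and 1.66, 1.98 and 2.63 in KO (-1.93 ± 0.31, adjusted p = 0.00472; -2.24 kept, -1.35 left out). The other 2 stood at -2.28 and -2.88 in the kept and at -0.80 and -0.09 in the left-out libraries. Its TSS peak stood at -0.38 (adjusted p = 0.674). Itgb8, the partner of αV in TGF-β activation, was the 1 gene of this group that was lower at its own TSS (-1.60 ± 0.36, adjusted p = 0.0353), with -2.41 in kept and -0.36 in left-out libraries.

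Itgb1, the integrin β1 chain, was lower at a peak 149 kb away (-1.97 ± 0.29, adjusted p = 0.00310; -2.41 kept, -0.80 left out). Cxcr4, the receptor of CXCL12, was lower at 2 peaks (-1.51 and -1.69, adjusted p = 0.00495 and 0.0193), with -1.71 and -1.81 in the kept and -1.08 and -1.57 in the left-out libraries. The costimulatory genes Tnfsf4 (OX40 ligand) and Tnfrsf8 (CD30) had 1 and 2 lower peaks, at -1.97, -1.88 and -1.38 (adjusted p = 0.0216, 0.0280 and 0.0128), with -2.51, -2.20 and -1.55 in the kept and -0.93, -1.01 and -0.85 in the left-out libraries. Myc was lower at a peak inside Pvt1 253 kb from its TSS (-1.63, adjusted p = 0.0164; -2.06 kept, -0.76 left out). The cyclin gene Ccnd2 was lower at one 64.1 kb away (-2.33, adjusted p = 0.0220), where KO and WT overlapped and the value was -3.27 in the kept but -0.48 in the left-out libraries. At distances of this size the nearest gene is a label and no evidence of a target.

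**Figure D3:**
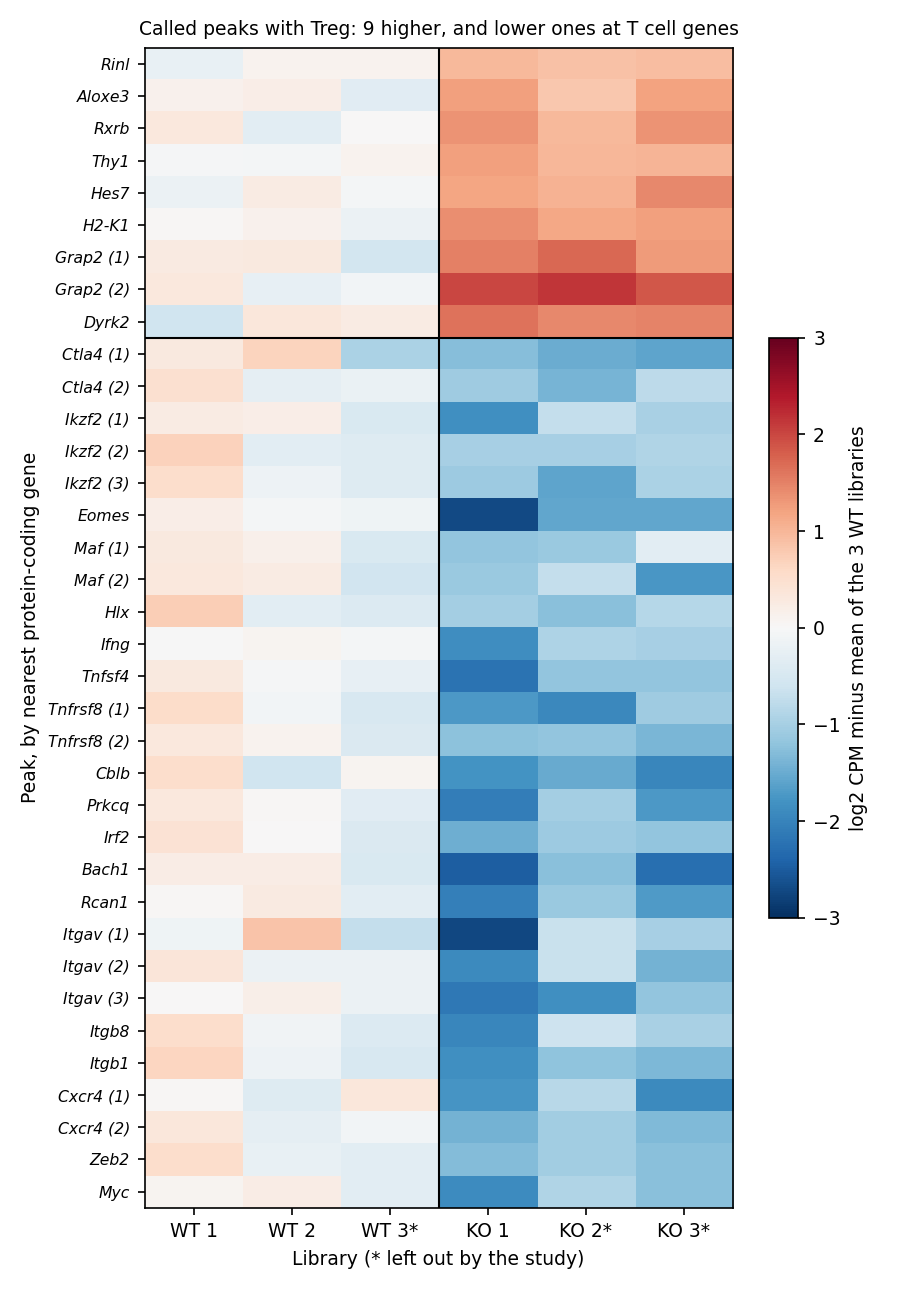
Log2 CPM in each library minus the mean of the 3 WT libraries, for the 9 peaks called higher (above the line) and for called lower peaks of listed T cell genes, named by the nearest protein-coding gene; red is higher and blue lower than the WT mean. Every KO library lies above every WT library at the 9 higher peaks. KO 1 is the lowest library at 18 of the 27 lower peaks shown and WT 1 the highest at 20.

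Counts over gene lists were low, since few peaks were called at all. A peak was given to the protein-coding gene with the nearest TSS, and the median over all peaks was -0.07 over all 6, -0.11 in kept and 0.04 in left-out libraries. The calls below are to be read against the 0.729% of all peaks called lower. Without WT 1 and without KO 1, the median over all peaks was -0.04 and 0.06. A published exhaustion signature had 31 lower and 0 higher calls among 1168 peaks, at 19 of its genes, with a median of -0.26 (-0.31 kept, -0.17 left out, -0.20 without WT 1, -0.19 without KO 1). The 31 included Stk39, Itgav, Ikzf2, Eomes, Nfatc1, Ctla4, Ptpn13, a tyrosine phosphatase, Cd9, a tetraspanin, and Rgs16, a regulator of G protein signalling. The shorter list of exhaustion factors (7 lower calls of 441 peaks, all at Eomes, Ikzf2, Maf and Nfatc1) had a median of -0.20, which was -0.18 without WT 1 but -0.04 without KO 1 and -0.02 with log2 depth as a covariate. Treg-associated genes (5 of 188 peaks, at Ctla4 and Ikzf2) had one of -0.25, and of -0.23 without WT 1 and -0.11 without KO 1.

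Marker lists were compared in the same way. CD4 T cell markers had 1 higher call among 101 peaks, at Thy1, 0 lower ones and a median of 0.23 (0.32 kept, 0.21 left out). The 4 Treg markers had 5 lower calls among 67 peaks, also at Ctla4 and Ikzf2, and a median of -0.37 (-0.46 kept, -0.15 left out, -0.31 without WT 1, -0.24 without KO 1). The other Treg markers did not share this direction at their TSS peaks. Il2ra had 8.08 to 10.3 CPM in WT and 10.5 to 24.1 in KO, while Foxp3 overlapped, with 2.02 to 4.06 in WT and 2.68 to 5.41 in KO. B cell markers had 1 lower call among 23 peaks, in Pax5 (-1.48), and a median of -0.38 (-0.55 kept, 0.30 left out), which was -0.27 without WT 1 and 0.20 without KO 1. Myeloid markers had 1 lower call among 25 peaks, at Cd14, and a median of 0.02 (-0.31 without WT 1, 0.31 without KO 1). CD8 T cell, NK and erythroid markers had 0 calls over 7, 15 and 3 peaks, also 0 at unadjusted p under 0.05 with edgeR, and their medians of -0.08, -0.02 and -0.16 changed sign with 1 library left out. The part of the marker lists in the medians of the exhaustion and Treg-associated lists was not tested.

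Among the other lists, cytokine receptors had 0 calls over all 6 libraries among 222 peaks with edgeR, TMM scaling and no covariate (24 higher and 6 lower at unadjusted p under 0.05). They had 1 higher call with each of library size alone, offsets on abundance and log2 depth, and 4 higher and 1 lower in the kept libraries. Their median was 0.30 (0.35 kept, 0.12 left out), and the peaks chosen for Il18r1, Il7r and Ifngr1 had 1.11, 1.39 and 1.32 (adjusted p = 0.227, 0.189 and 0.183). A published Th1 signature had 6 lower calls among 845 peaks, at Eomes, Gadd45g, Hlx, Ifng, Mx1 and Tnfsf4, a share near that of all peaks, and a median of 0.15 (0.21 and 0.09). Cytotoxic genes had 1 lower call among 119 peaks, at Zeb2, and a median of -0.14 (-0.13 in both sets), which was 0.12 without WT 1 and -0.24 without KO 1. The Th1 list of 263 peaks had 3 lower calls and medians of 0.24 over all 6, 0.36 in kept and -0.04 in left-out libraries, so its sign was not shared by both sets, and its median was 0.02 without KO 1. A list of 54 genes that the study drew from its own samples had 0 calls over all 6 libraries with edgeR and TMM scaling (76 peaks higher and 2 lower at unadjusted p under 0.05 of 399, where 4.12% of all peaks were higher and 7.34% lower), 2 higher calls with library size alone, 3 with offsets on abundance and 12 in the kept libraries. Its median was 0.48 (0.60 kept, 0.18 left out), which is no independent evidence since the list was chosen on the series. Proximal T cell receptor signalling had 2 higher calls (Grap2) and 2 lower ones (Cblb and Prkcq) among 415 peaks and a median of 0.05. Th2, Tfh, naive and memory, and STAT and SOCS genes had 0 calls over all 6 libraries with edgeR and TMM scaling, with medians from -0.12 to 0.13. With other scalings, offsets or log2 depth each of these lists had 0 to 3 calls. Some of these turned with 1 library: the median of naive and memory genes was -0.41 without WT 1 and 0.33 without KO 1, and that of Th2 genes -0.32 and 0.29. At unadjusted p under 0.05, Th2 genes had 3 peaks higher and 8 lower, Tfh genes 6 and 25, naive and memory genes 16 and 25, and STAT and SOCS genes 9 and 2.

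**Figure D4:**
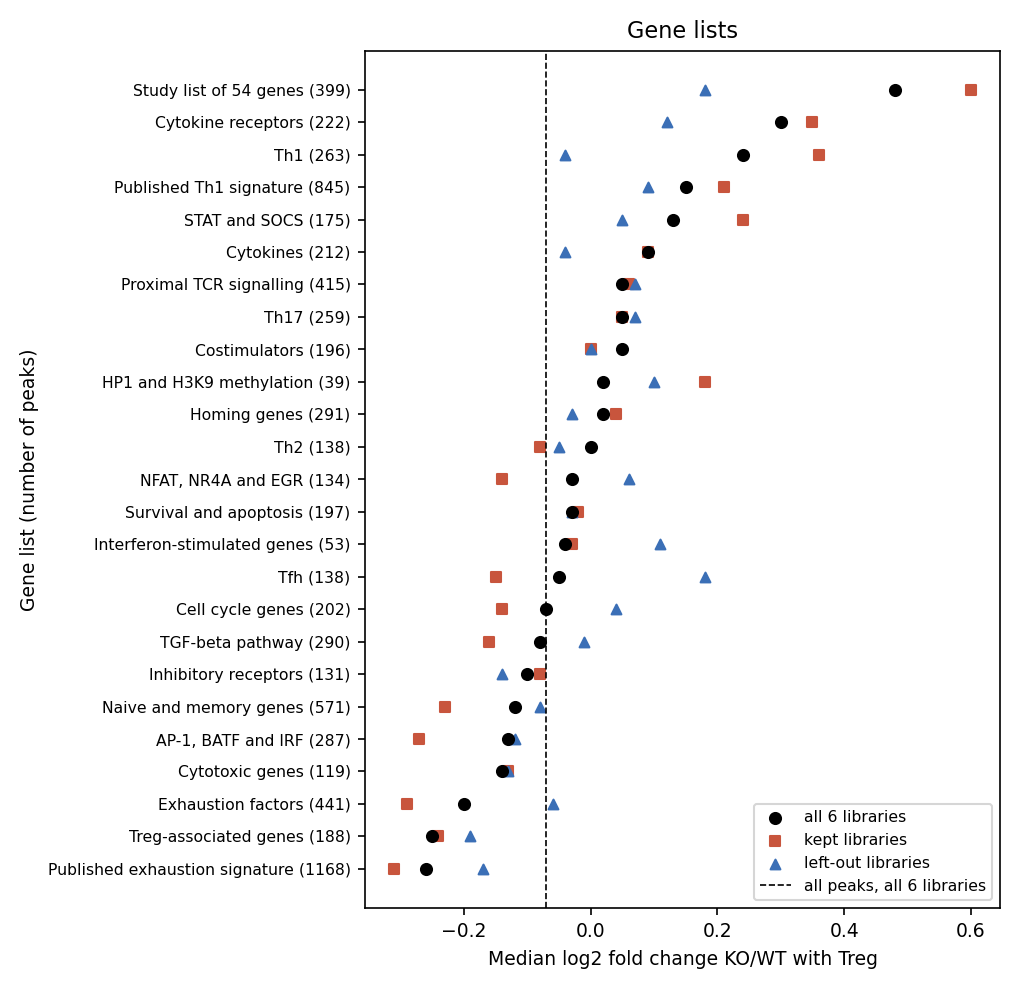
Median log2 fold change KO/WT with Treg over the peaks of gene lists (number of peaks in parentheses), over all 6 (black), kept (red) and left-out libraries (blue), with a dashed line at the median of all peaks; marker and housekeeping lists are not plotted. Of the lists plotted, the published exhaustion signature, Treg-associated genes and exhaustion factors are the lowest over all 6 libraries, and the study's 54 genes and cytokine receptors the highest.

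The lower peaks shared features that the test did not use. Of the 521, 287 were intronic (55.1%, against 45.6% of all peaks), 130 intergenic (25% against 18%) and 67 at a TSS (12.9% against 30.1%), and their median distance to a coding TSS was 21.2 kb against 8.79 kb. Their GC content was lower, with a median of 44.0% against 48.0%. The AP-1 motif TGANTCA, searched on both strands in the central 300 bases, was in 194 of them (37.2%) and in 13.0% of all peaks. The NFAT motif GGAAAA was in 36.9% against 22.4%, the SP/KLF motif GGGCGG in 7.87% against 16.5%, and the ETS motif GGAAGT in 18.8% against 26.8%. The RUNX motif TGTGGT was in 30.1% of the lower peaks and 30.0% of all, the T-box motif GGTGTGA in 6.53% and 5.58%, the TCF/LEF motif CTTTGA in 26.3% and 21.9%, and the GATA motif AGATAA in 16.7% and 13.6%.

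Away from TSSs and exons the AP-1 share was 36.7% of 417 lower peaks against 15.3% of all such peaks. Among peaks opened from naive cells to Tconv in WT cells of the study's HP1γ line it was 39.6% of the 308 lower ones against 22.1% of all 17513. A match is a description of the letters and no evidence of binding.

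The lower peaks were also compared with the response to activation and to Treg in other mice. In WT libraries of the HP1γ line, which took no part in the comparison, they opened from naive cells to Tconv by a median log2 fold change of 2.12 (0.08 over all peaks). With Treg against without Treg they stood at 0.78 (0.03 over all peaks), and 492 of 521 (94.4%) were above 0, against 53.1% of all peaks. The 9 higher peaks had a median of -0.24 there, with 8 below 0.

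Among the HP1α libraries, the median log2 CPM of the 521 lower peaks was 3.72, 3.35 and 3.01 in WT with Treg and 1.38, 2.23 and 2.05 in KO with Treg. Without Treg it was 0.79, 1.46 and 1.55 in WT and 0.59, 0.64 and 1.31 in KO, and in naive cells -1.64 to -1.01. The order of KO and WT with Treg was fixed by the choice of these peaks. KO 2 and 3 with Treg lay above the WT libraries without Treg, and KO 1 lay within their range. Their KO effect had a median of -0.21 without Treg and of -0.05 in naive cells.

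Peaks grouped into deciles by the Treg response of the HP1γ-line WT cells showed this relation over all peaks. The decile most opened by Treg had a median KO effect of -0.71 (-1.22 kept, -0.17 left out, -0.22 without Treg) and held 201 of the 521 lower calls, 2.81% of its 7151 peaks. The decile most closed had a median of 0.12 and 1 lower call. The top decile stood at -1.0 without WT 1, but at 0.18 without KO 1. With log2 depth as a covariate it stood at 0.21 and was the highest decile instead of the lowest. KO 1 is the deepest library, so the part of depth and that of this library cannot be told apart.

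**Figure D5:**
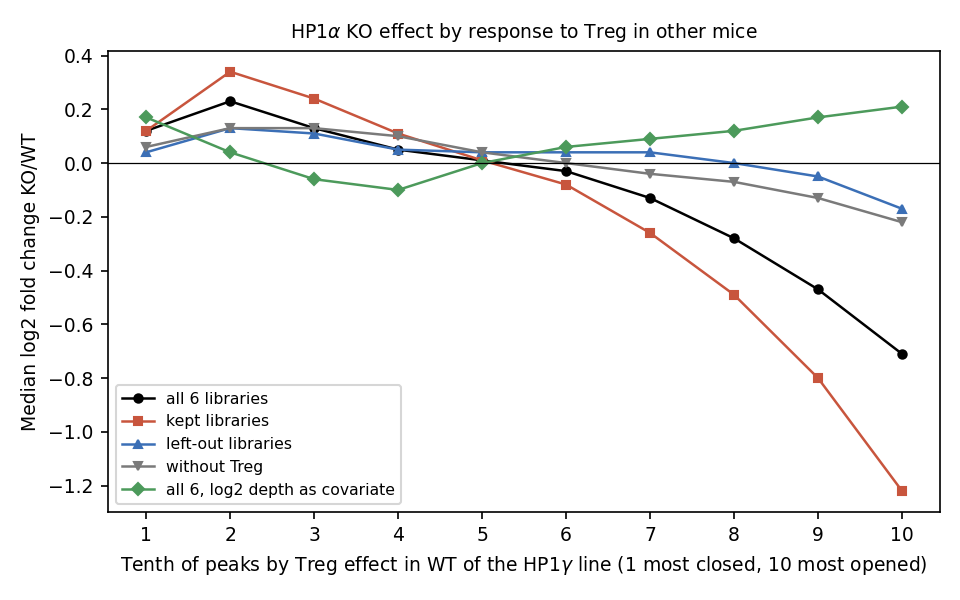
Median log2 fold change KO/WT (y axis) in each decile of peaks ordered by the Treg effect in WT cells of the HP1γ line (x axis, 1 most closed to 10 most opened), over all 6, kept and left-out libraries, without Treg, and over all 6 with log2 depth as covariate. Over all 6 libraries the medians run from 0.12 and 0.23 in deciles 1 and 2 to -0.71 in decile 10. When log2 depth entered the fit, decile 10 was at 0.21, the highest of the deciles.

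Some leading calls of the kept libraries were not shared by the left-out ones. A peak 365 kb from Arl4a stood at -4.88 in the kept and 1.04 in the left-out libraries, and an exonic peak of Synrg at -2.95 and 0.63. Among the higher leaders, the peaks near Arl4c (1.99 kept), in Itgb3 (1.88) and in Phldb1 (1.52) had -0.16, 0.07 and -0.04 in the left-out libraries, whereas those at the TSS of Rpl3 and near Rplp1, both ribosomal protein genes, had 0.80 and 0.60. The peaks chosen for the largest change in both sets of libraries were led by one 57.6 kb from Sh3bp4, an adaptor of endocytosis (chr1:89122651-89123130), with 2.80, 2.88 and 3.31 log2 CPM in WT and 0.30, 0.83 and 0.19 in KO (-2.59 kept, -2.77 left out). Arhgap10 (-2.54 and -2.61), Dock9 (-2.25 and -2.27), both regulators of small GTPases, and a peak near Rb1 in Itm2b (-2.38 and -2.02) followed. The 8 higher peaks chosen in this way rested on low counts in the left-out WT library, and no fold is given for them.

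Whether the effect of HP1α loss differed with Treg was tested as an interaction. The effect with Treg minus that without Treg was called at 0 of 71508 peaks by edgeR (4953 at unadjusted p under 0.05, 6.93%), at 29 by DESeq2, and at 33, all lower, in the kept libraries alone. KO and WT differed at 24 peaks without Treg (0.0336%) and at 7 in naive cells (0.00979%) by the same rule. The medians at the 521 lower peaks were -1.85 with Treg and -0.21 without, but the peaks were chosen on the first of these values. The larger number of calls with Treg is therefore no test of a difference between the conditions.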

How the data were processed

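ATAC-seq read counts were analysed for 18 HP1α libraries (naive cells, Tconv and Tconv with Treg, 3 KO and 3 WT of each) and, for reference, the HP1γ-line libraries. Per the study's methods the authors trimmed reads with Trim Galore (version 0.6.7), aligned them to GRCm39 with BWA, removed duplicates and low-quality or blacklisted reads, and called peaks per sample with HMMRATAC. They merged the peaks of all samples and counted reads in them with featureCounts (version 2.0.3). The deposited counts are raw, whole numbers per peak and library. Of 71512 intervals, 3 with no width were left out.

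Counts were fitted with edgeR (version 4.0.16, TMM scaling, filterByExpr, quasi-likelihood test with bias-adjusted dispersion) over the 18 HP1α libraries, in 6 groups for all 6 libraries with Treg, over 15 libraries for the kept ones, and in 8 groups for the left-out ones. The study used an older edgeR, whose dispersion estimate was added as an alternative after seeing the data. P-values were adjusted by Benjamini-Hochberg over all peaks, and calls needed an adjusted p below 0.05 and an absolute log2 fold change above 1. A library's log2 CPM has a prior count of 2, while fold changes come from the fit, where deep libraries weigh more. Peaks were placed on the GRCm39 annotation, and a TSS peak lies within 1 kb of a TSS. Depth is given as reads in peaks per library, and the fit was tested on simulated counts with 200 changed peaks. DESeq2 (version 1.42.0) and limma (version 3.58.1) were alternatives, with GC, abundance and depth corrections, other scalings and each library left out.

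The members, gene lists and tests were chosen with earlier results of these data known. Named were the Cbx5 TSS peak, up to 10 higher and 15 lower calls with the smallest adjusted p among peaks whose groups did not overlap, 5 calls in each direction in the kept libraries, up to 4 genes per list by their best peak, Il2, Ifng and Il17a, and 8 peaks in each direction with at least 20 reads on average and the largest smaller effect of both library sets. Other called peaks of listed genes and TSS peaks of some of them were added after their values were seen. A called member of the gene lists is not reported here.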

Additional observations from a re-analysis of the deposited data

How the results depend on the processing

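The libraries of this comparison are uneven: KO 1 is the deepest, WT 2 the shallowest, and the kept set has 1 KO library. The 530 calls over all 6 libraries (521 lower) were 0 to 766 when 1 library with Treg was left out and 496 to 716 when 1 without Treg was. They became 785 (264 higher, 521 lower) with DESeq2, 484 (64 and 420) with library size alone, 1037 (166 and 871) with the TSS share as covariate, 1015 (92 and 923) with offsets on abundance, and 375 (32 and 343) with log2 depth. They were 1 (higher) with the older dispersion estimate, 0 with limma (6995 at unadjusted p under 0.05) and 0 with the 6 libraries alone. Of the 521 lower peaks, which were chosen on the same libraries, 514 to 521 stayed lower in these fits. By DESeq2, with log2 depth and by limma, 289, 205 and 0 were called again.

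The 1168 calls of the kept libraries became 2554 with DESeq2 (1302 higher, 1252 lower), 1970 with limma, 754 with the TSS share, 41 with log2 depth, 100 with the older estimate (75 and 25), 0 with the libraries compared alone (11311 at unadjusted p under 0.05), and 0 to 521 with a library left out. The left-out libraries gave 39 with DESeq2, 196 when fitted alone and 0 to 0 with a library left out, where a lone library is assumed to vary like the other groups. The kept minus left-out difference gave 40 with DESeq2. The interaction gave 29 with DESeq2, 1 with offsets on abundance, 33 in the kept libraries, and 0 to 45 with 1 library left out (45 without KO Tconv 1, 26 without WT Treg 3). The causes were not tested.

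The replicate numbers were not shown to pair the libraries (correlations of deviations 0.19, -0.06 and 0.18). With a replicate block the calls were 3051 (739 higher, 2312 lower), and with the block and log2 depth 149 (61 higher, 88 lower). Of the 521 lower peaks, 22 were called again with the block and log2 depth. The interaction gave 342 and 353 calls in these fits. The Il17a TSS peak reversed from -0.08 to 4.18 with the block and log2 depth. Within the kept or the left-out libraries alone no block could be fitted, since KO and WT share too few replicate numbers there.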

Other observations

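Genes with several lower peaks were seen beyond the lists. The 521 lower peaks were nearest to 431 protein-coding genes, 64 of which had more than 1. Etv6, a repressor of the ETS family, and Tspan5, a tetraspanin, had 5 each, Kcnh1, Rapgef5 and Wwox 4 each, and Tet2, a dioxygenase of DNA demethylation, and Nfia 3 each. The number of peaks nearest to each gene is not given here, while 0.729% of all peaks were called lower. A gene with many peaks can reach such counts by number alone. By chromosome the share of peaks called lower ran from 0.205% on chromosome 11, whose median log2 fold change was 0.31, to 1.16% on chromosome 1, with a median of -0.19. These genes and chromosomes were picked after their values were seen.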
